A study of Homo sapiens with 10 samples.

Results

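The transcription factors MITF, SOX10, SOX9, PAX3, TFAP2A and LEF1 were followed through 10 libraries of BRAF-mutant melanoma cell lines that were sensitive or resistant to the BRAF inhibitor encorafenib combined with the MEK inhibitor binimetinib. The 6 genes were taken by their gene symbol, each of which occurred once among the 57955 genes of the files. Their levels were compared between each sensitive line and its resistant derivative (E+BRes), which is the comparison the study was designed for. The sensitive lines were WM983A, WM278 and WM902B, labelled as primary, and WM983B and WM1617, labelled as metastatic, and all were grown in RPMI-1640 medium with foetal bovine serum. The resistant lines had received both drugs at doses that rose from 1 nM to 200 nM within 3 to 5 months, and were then kept at 200 nM, so that selection and continued exposure cannot be told apart. Each line gave 1 library per state. WM983A and WM983B came from the same patient, as did WM278 and WM1617, so the 5 lines stand for 3 patients, and p-values that treat the lines as independent measure the spread between these lines only. The labels give no sequencing batch.

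These factors form the core of the melanocyte regulatory network. MITF is the basic helix-loop-helix leucine zipper factor that drives pigment genes and melanocyte survival genes, and its melanocyte-specific promoter is bound by SOX10, PAX3, LEF1 with beta-catenin, and CREB. SOX10 specifies the neural crest lineages that become melanocytes and Schwann cells, while the related SOX9 is best known from cartilage and is often expressed in the opposite pattern to SOX10 in melanoma. PAX3 marks neural crest and melanoblasts, TFAP2A encodes the factor AP-2 alpha of neural crest and epidermis, and LEF1 is a nuclear partner of beta-catenin in WNT signalling.

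The libraries held 13693922 to 18033247 counts, and 3 counts, taken as the smallest detectable level, corresponded to 0.166 to 0.219 CPM (counts scaled to the library total). Counts of reads per gene were scaled to a common library size by the TMM method and are called normalized counts. Of the 6 factors, 5 were among the 17288 genes that passed the filter on low counts, and SOX9 was not. The resistant WM983A library stood apart, since its levels over these genes correlated less with those of sensitive WM983A (r = 0.787, across genes) than with those of sensitive WM902B (r = 0.813), and values without that line are given beside the tests of the factors. Ratios in WM983A take the labels' pairing of both libraries, and the identity of the lines was not tested. The summed level of 8 melanocytic markers ran from 6290 to 72700 normalized counts in the sensitive libraries and from 1250 to 80600 in the resistant ones. The lowest sensitive sum was that of WM278. Among markers of other cell types, the leukocyte markers CD3E and MS4A1, the endothelial marker CDH5 and the keratinocyte markers KRT1 and DSG3 had at most 3 counts in every library. Other members of these lists were present. The summed level was 71.3 to 1210 normalized counts for 6 leukocyte markers, with CD68, a lysosomal marker of macrophages, at 70.3 to 1190. It was 317 to 1320 for 6 keratinocyte markers, with KRT10 at 256 to 1310 and TP63 at 294 in resistant WM983B. It was 3.24 to 815 for 5 endothelial markers, with KDR at 811 in sensitive WM278. The summed level of 8 fibroblast markers was 207 to 1360 in the sensitive libraries and 143 to 25900 in the resistant ones, with the highest value in resistant WM902B.

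None of the 5 factors that passed the filter had a p of 0.05 or less, adjusted or not, in edgeR's quasi-likelihood test of the 5 resistant against the 5 sensitive libraries. The same test called 0% of all genes tested after adjustment, where the smallest adjusted p was 0.630. With an unadjusted p of 0.05 or less and a 2-fold change, it called 3.53% of the genes higher and 0.885% lower. With cell line as a replicate block these shares were 3.49% and 2.05%, and again 0% passed after adjustment. DESeq2, run as an alternative, called 106 genes after adjustment, and none of these factors was among them. Within single lines, by contrast, the factors differed by up to 479-fold. These within-line differences have no replicate and no test, and their intervals cover counting error only.

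In resistant WM983A, 4 of the 6 factors were at least 2-fold lower and 1 was at least 2-fold higher, where 19.4% of all genes tested were at least 2-fold lower and 16.9% at least 2-fold higher. In resistant WM983B, 3 factors were lower and 1 was higher by that measure, against 11.2% and 16.2% of all genes. In resistant WM902B, 2 factors were lower and 0 higher, against 12% and 15.4%. In resistant WM278, 1 factor was lower and 1 was higher, against 7.02% and 12%. In resistant WM1617 all 6 factors stayed within 2-fold of the sensitive library, and there 3.79% of all genes were at least 2-fold lower and 2.83% at least 2-fold higher. SOX9, counted here among the 6 factors, did not pass the filter and is not among the genes behind these shares. It was the higher factor in WM983A and WM983B, the lower one in WM278 and 1 of the 2 lower ones in WM902B. Over all genes tested, the median log2 ratio of resistant to sensitive was between -0.01 and 0.03 in every line. The plot of levels by line shows the 60 values these counts rest on.

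**Figure D1:**
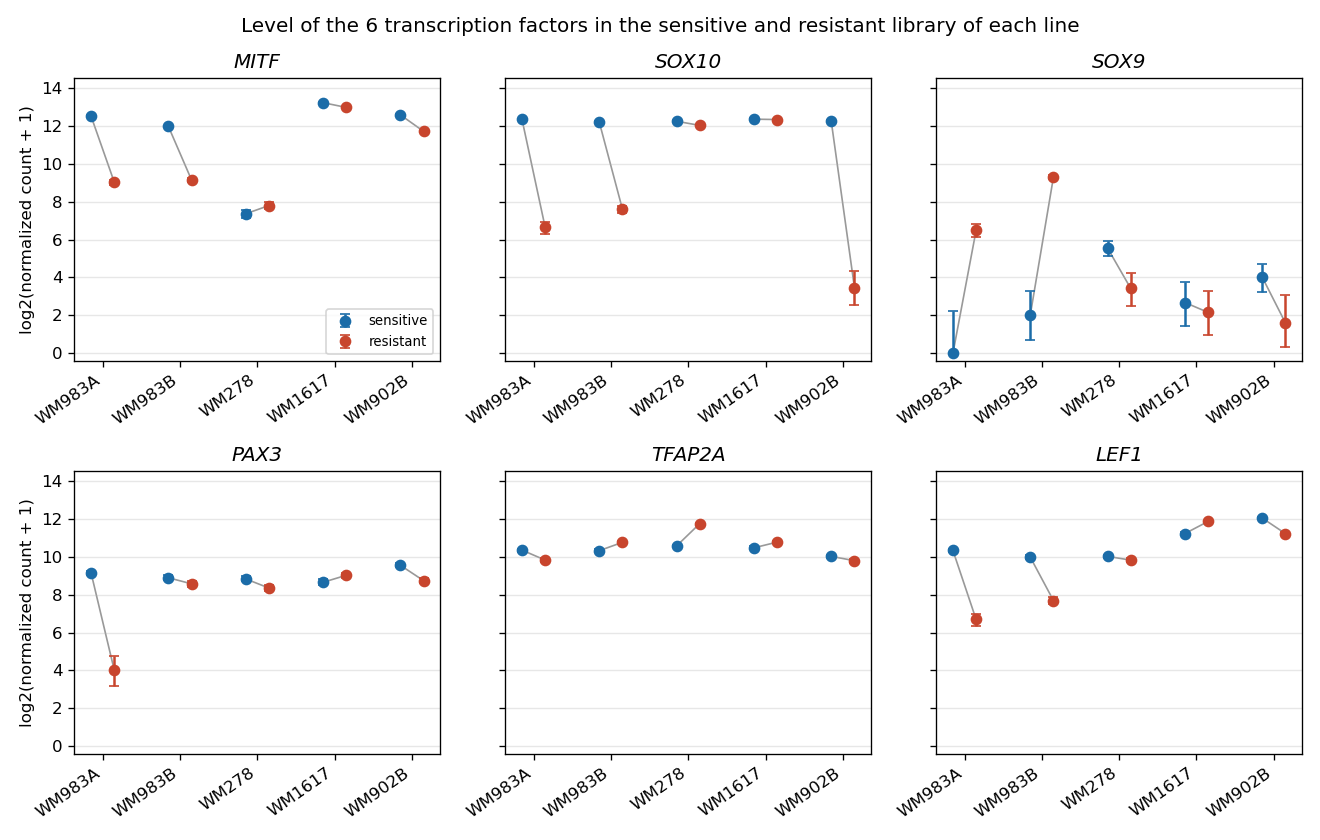
Each panel plots 1 gene, with the line on the x axis and log2(normalized count + 1) on the y axis, and a grey line joins the sensitive and the resistant library of a line. Points are single libraries and bars are 95% counting intervals. SOX10 lies at 12.19 to 12.35 in the 5 sensitive libraries and drops to 3.47 in resistant WM902B, and SOX9 reaches 9.29 in resistant WM983B.

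SOX10 (ENSG00000100146, GRCh38 chromosome 22 from 37970686 to 37987422, minus strand) was the most uniform of the factors in the sensitive lines and the most divided in the resistant ones. Its normalized counts in the sensitive libraries were 5198 in WM983A, 4664 in WM983B, 4844 in WM902B, 4845 in WM278 and 5228 in WM1617. In the resistant libraries they were 98.39 in WM983A, 191.9 in WM983B, 10.11 in WM902B, 4165 in WM278 and 5136 in WM1617. Thus 3 resistant lines had little SOX10 transcript left while the other 2, which came from the same patient, kept a level close to that of the sensitive lines. The groups overlapped only through resistant WM1617.

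The sensitive libraries spanned a 1.12-fold range (mean 4960 ± 246, SD, n = 5), against a 508-fold range in the resistant ones (mean 1920 ± 2520, SD, n = 5). Resistant WM902B was 479-fold lower than its sensitive line (95% counting interval 256 to 982), since only 9.816 counts remained of 4767. The difference was 52.8-fold in WM983A (42.7 to 66.6) and 24.3-fold in WM983B (21.1 to 28.1). In WM278 the resistant library was 1.16-fold lower (1.12 to 1.21), and in WM1617 the counting interval of the fold included no difference (0.980 to 1.06).

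The edgeR log2 fold change of SOX10, which weights the libraries by their counts, was -1.37 (SE 1.19, adjusted p = 0.851). Without WM983A it was -1.04 (adjusted p = 0.956). The difference in mean log2 level was -3.86, with a p of 0.0317 in the exact two-sided permutation test, which has 252 arrangements and in which 0.00794 is the smallest p possible. That p was 0.767 after adjustment over all genes tested, and 6.2% of all genes had an unadjusted permutation p of at most 0.05. Of the 6 factors SOX10 alone did. Without WM983A the exact permutation p was 0.114, and it was 0.0857 without WM983B, WM278 or WM902B and 0.0286 without WM1617, the smallest that 4 against 4 libraries allow.

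In bulk RNA a lower level in each cell and a smaller share of cells with the transcript cannot be told apart. All 8 melanocytic markers were at least 2-fold lower in resistant WM983A and in resistant WM902B. In resistant WM983B 7 of the 8 were, and 1 was at least 2-fold higher. Of all genes tested, 19.4%, 12% and 11.2% were lower by that measure in WM983A, WM902B and WM983B. In resistant WM278 1 marker was lower and 3 were higher by that measure, and in resistant WM1617 0 were lower and 1 was higher. In WM902B the summed fibroblast markers went from 965 to 25900 normalized counts, of which COL1A1, a fibrillar collagen gene, had 18800. In WM983B they went from 1340 to 4560, and in WM983A from 1360 to 143. In the lines that kept SOX10 they went from 402 to 2620 in WM278 and from 207 to 336 in WM1617. The part of these cell type markers in the SOX10 values was not tested. POLR2F, which encodes a shared RNA polymerase subunit, overlaps SOX10 on the opposite strand, and whether counting used strand is not given in the sources used here. Its log2 ratios were -1.65 in WM983A, -1.38 in WM983B, -0.76 in WM902B, 0.00 in WM278 and -0.20 in WM1617.

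MITF (ENSG00000187098, GRCh38 chromosome 3 from 69739456 to 69968336, plus strand) varied widely between the sensitive lines. The sensitive libraries held 5851 normalized counts in WM983A, 4013 in WM983B, 6114 in WM902B, 163.4 in WM278 and 9537 in WM1617. The resistant libraries held 521.1 in WM983A, 561.4 in WM983B, 3347 in WM902B, 220.2 in WM278 and 8026 in WM1617. WM278 was low in both states, WM1617 was high in both, and the groups overlapped over most of their range. Between WM1617 and WM278, the lines of 1 patient, sensitive MITF levels differed 58.4-fold.

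Per kilobase of exon the median sensitive level was 789 normalized counts for MITF and 1000 for SOX10, so in 4 of the 5 sensitive lines both transcripts were present at a like order of magnitude, and WM278, with 22 for MITF and 1000 for SOX10, was the exception. In the order of MITF levels over the 10 libraries, 2 of the 9 neighbouring pairs had overlapping counting intervals, namely sensitive WM902B with sensitive WM983A and resistant WM983B with resistant WM983A.

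Resistant WM983A had 11.2-fold less MITF than its sensitive line (95% counting interval 10.2 to 12.4), resistant WM983B 7.15-fold less (6.56 to 7.81) and resistant WM902B 1.83-fold less (1.75 to 1.91). In WM1617 the resistant library was 1.19-fold lower (1.15 to 1.22), and in WM278 it was 1.35-fold higher (1.10 to 1.66). WM902B, the line with the lowest remaining SOX10, therefore kept 54.8% of its MITF level. The edgeR log2 fold change was -1.02 (SE 1.06, adjusted p = 0.877), and -0.71 without WM983A (adjusted p = 0.975). The exact permutation p of the log2 levels was 0.405, and 0.714 without WM983A. Over the 10 libraries the log2 levels of MITF and SOX10 had a Pearson's r of 0.17, a description only, since libraries of a line share their origin.

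**Figure D2:**
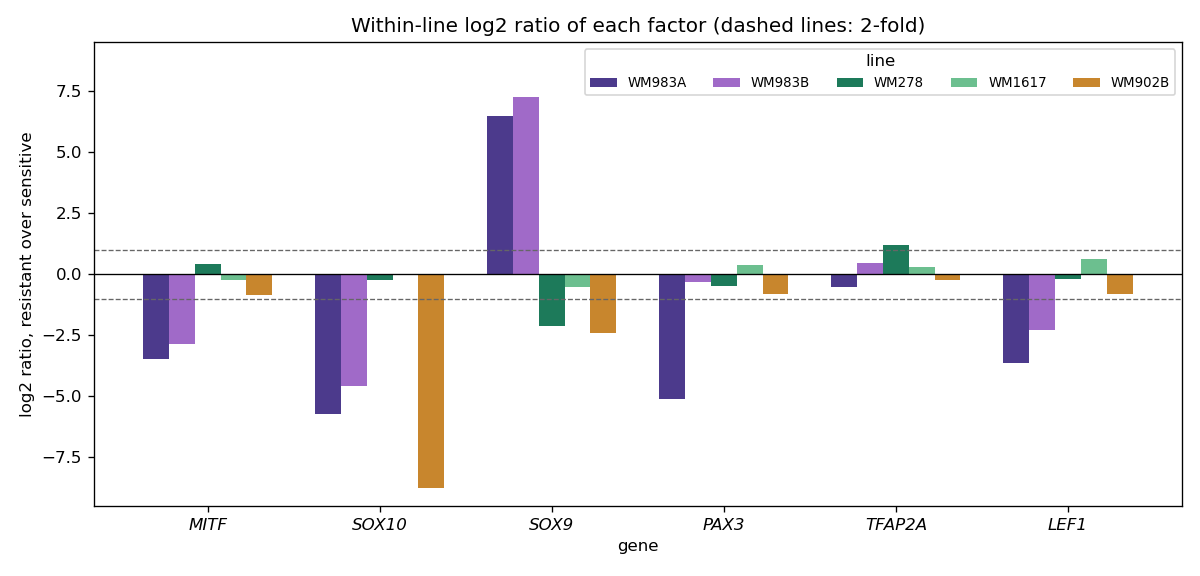
Bars give log2 ratios, resistant over sensitive normalized count with 1 added to both, for each gene on the x axis and each line by colour, and dashed lines mark 2-fold. SOX10 is at -5.71, -4.60 and -8.77 in WM983A, WM983B and WM902B, SOX9 is at 6.49 and 7.28 in WM983A and WM983B, where the first value is set by the added 1 because sensitive WM983A had 0 counts, and TFAP2A stays between -0.53 and 1.18.

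Promoter sequences are shown because MITF is itself a target of the other factors and some promoters of its targets carry its binding motif. The sequences are the 250 bases before the annotated start in RefSeq's GRCh38.p14 annotation, 5′ to 3′. Of the 6 factors, MITF, PAX3, TFAP2A and LEF1 had entries. In the third MITF entry, at the melanocyte-specific start, capitals mark the LEF/TCF motif CTTTGAT at position -204 and the cyclic AMP response element TGACGTCA at -152, counted from the start. The TYR, TYRP1 and DCT promoters serve the pigment enzymes tyrosinase, tyrosinase-related protein 1 and dopachrome tautomerase. In them capitals mark the M-box TCATGTG or its reverse complement, the motif of MITF. DCT has a second entry, from 94549407 to 94549656 on chromosome 13, which lacks the M-box and is not shown.
MITF, chr3:69936342-69936591, plus strand: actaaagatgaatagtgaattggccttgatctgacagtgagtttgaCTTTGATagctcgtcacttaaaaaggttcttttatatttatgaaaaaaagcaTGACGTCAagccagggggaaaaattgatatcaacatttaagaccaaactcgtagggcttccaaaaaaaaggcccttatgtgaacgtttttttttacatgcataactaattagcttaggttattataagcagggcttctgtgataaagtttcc
TYR, chr11:89177625-89177874, plus strand: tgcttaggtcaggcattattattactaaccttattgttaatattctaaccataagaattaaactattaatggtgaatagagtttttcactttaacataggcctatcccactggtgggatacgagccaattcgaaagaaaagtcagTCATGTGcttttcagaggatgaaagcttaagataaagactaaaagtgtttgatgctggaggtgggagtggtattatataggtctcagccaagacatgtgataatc
TYRP1, chr9:12693135-12693384, plus strand: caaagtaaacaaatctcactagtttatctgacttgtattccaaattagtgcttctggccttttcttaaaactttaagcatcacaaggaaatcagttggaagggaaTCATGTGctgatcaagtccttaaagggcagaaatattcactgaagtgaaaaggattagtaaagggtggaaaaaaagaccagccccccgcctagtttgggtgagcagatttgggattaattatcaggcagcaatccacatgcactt
DCT, chr13:94479683-94479932, minus strand: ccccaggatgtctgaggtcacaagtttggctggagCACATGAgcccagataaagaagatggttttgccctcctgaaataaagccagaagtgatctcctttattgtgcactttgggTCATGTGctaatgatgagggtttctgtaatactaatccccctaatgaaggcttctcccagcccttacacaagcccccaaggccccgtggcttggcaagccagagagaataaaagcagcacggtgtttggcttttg
Searched on both strands, CTTTGAT was in 2.26% and TGACGTCA in 1.65% of the 35116 promoters of the table. The M-box was in 9 of the 33 promoters listed for 20 of the MITF targets below (27.3%), against 2.52% of all promoters. It differs from the palindrome CACGTG, also bound by factors of this family, which was in 15.2% of the promoters of MITF targets and in 6.34% of all. The list was made of genes already named as MITF targets, so its shares describe the list and are no test. A match describes letters and not binding, and the deposited values are per gene, so they do not tell which MITF start was used.

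Of 24 genes listed as MITF targets, 22 passed the filter on low counts. Of these 0 were called higher and 1 lower in edgeR's test, again with an unadjusted p of 0.05 or less and a 2-fold change. The shares of all genes tested were 3.53% higher and 0.885% lower. The gene called lower was TYRP1, at a log2 fold change of -5.21 (adjusted p = 0.630 in edgeR's test). With cell line as a replicate block TYRP1 was at -1.71 and was not called (unadjusted p = 0.452 in edgeR's test). The median log2 fold change of the list was -0.91, against 0.03 over all genes tested. With the block 6 of the 22 were called lower, where 2.05% of all genes were, among them TYR, SLC24A5 and BCL2A1, while 0 passed after adjustment. The study listed BCL2A1 among its lower genes on these libraries, so it is no independent evidence. Without WM983A and without the block, the number of calls over all 9 pathway lists was 4 instead of 7.

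By line, 19 of the 22 MITF targets were at least 2-fold lower in resistant WM983A, 15 in WM902B and 12 in WM983B. The count was 6 in WM278 and 2 in WM1617. WM278 also had 6 targets at least 2-fold higher, while WM983B had 5, WM983A had 2, WM902B had 1 and WM1617 had 0. For WM983A, WM902B, WM983B, WM278 and WM1617 in turn, 19.4%, 12%, 11.2%, 7.02% and 3.79% of all genes tested were lower by that measure. The shares of higher genes were 16.9%, 15.4%, 16.2%, 12% and 2.83%. WM902B thus had 15 targets at least 2-fold lower while MITF itself was 1.83-fold lower. PMEL, which encodes the fibril protein of melanosomes, had 21400, 7000, 67.2, 30700 and 22000 normalized counts in sensitive WM983A, WM983B, WM278, WM1617 and WM902B, and 483, 395, 65.2, 29200 and 108 in the resistant libraries in that order. TYR had 2090, 871, 8.58, 3460 and 640 in the sensitive libraries and 15.2, 42.0, 8.98, 2410 and 5.15 in the resistant ones. Both pigment genes were low in WM278 in both states, as MITF was, and high in both WM1617 libraries.

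Log2 ratios listed without names of lines follow the order WM983A, WM983B, WM278, WM1617 and WM902B. Those of SLC24A5, a melanosomal ion exchanger, were -3.59, -3.34, -0.97, 0.78 and -6.47, and those of the antiapoptotic BCL2A1 were -4.70, -3.70, -0.06, -0.54 and -4.89. TYRP1 departed from the others, with log2 ratios of -7.74 in WM983A and -6.50 in WM983B but 2.95 in WM278 and 0.96 in WM902B. Its sensitive levels were 462 in WM983A and 3760 in WM983B and at most 15.9 in the remaining lines, so its fold change rests on the lines of 1 patient.

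**Figure D3:**
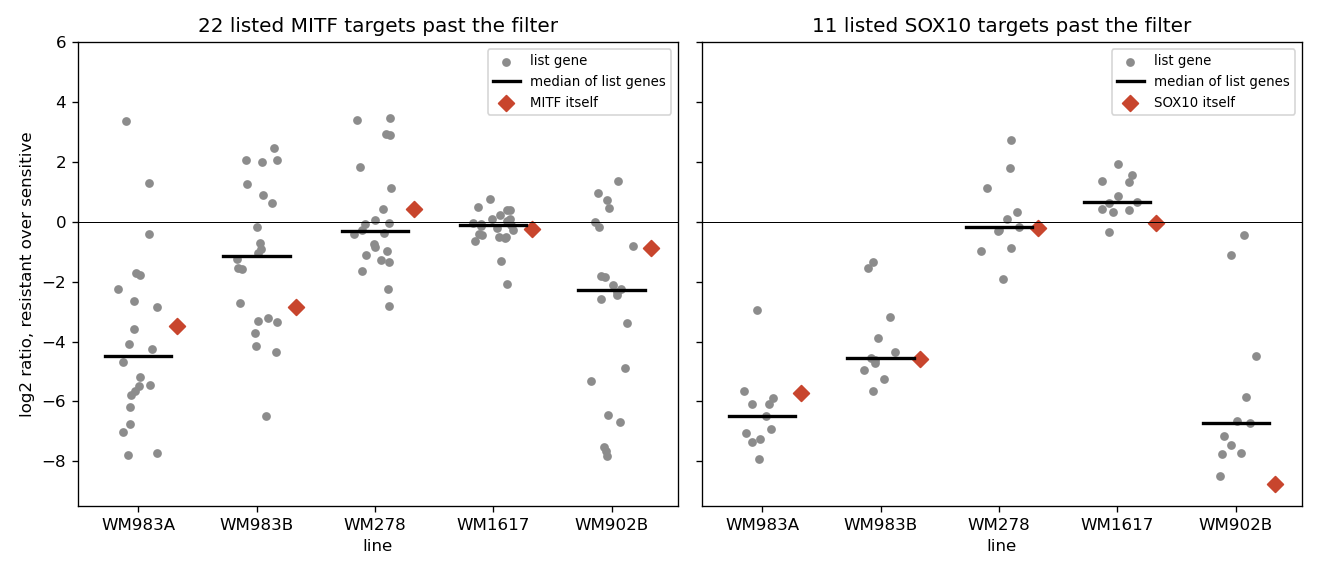
Grey points are the log2 ratios of single listed targets of MITF (left, 22 genes) and SOX10 (right, 11 genes) in each line on the x axis, black bars are their medians and red diamonds are the factor itself. In WM902B the median MITF target is at -2.28 where MITF is at -0.87, and the median SOX10 target is at -6.71 where SOX10 is at -8.77.

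The 10 nearest tested genes on each side of MITF lie between 67360460 and 72998138 on chromosome 3, and in WM983A their median log2 ratio was -2.29, where 13 of the 20 were at least 2-fold lower and 1 was at least 2-fold higher. MITF was at -3.49 there. In the other lines the median of the same neighbours was between -0.58 and 0.34, and 1 to 3 of the 20 were at least 2-fold lower. In WM983B, where MITF was at -2.84, the neighbours had a median of -0.58. The nearest neighbours were FRMD4B, with log2 ratios of -3.63, -3.23, -4.47, -2.89 and 1.30 in WM983A, WM983B, WM278, WM1617 and WM902B, and the melanoma long non-coding RNA SAMMSON, with -6.05, -2.20, 0.49, -0.35 and -2.30. The part of the surrounding segment in the MITF level of resistant WM983A was not tested. For SOX10 the median over 20 neighbours was -1.17 in WM983A, 0.05 in WM983B and -0.14 in WM902B, the lines where it was lowest.

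**Figure D4:**
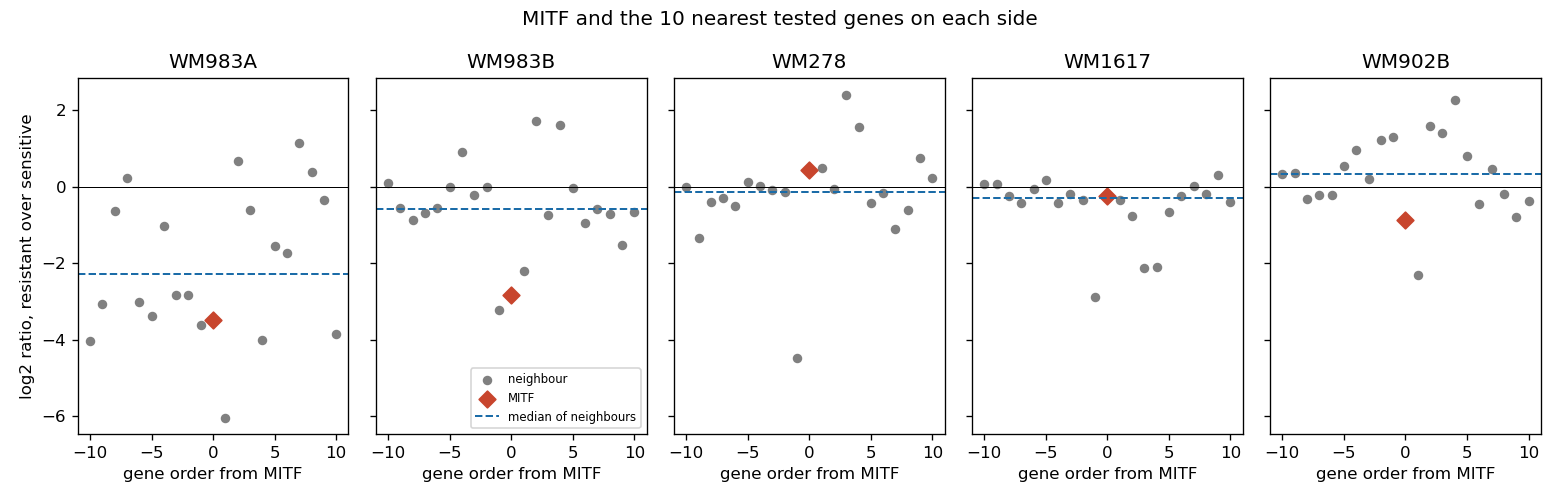
Each panel is 1 line, with gene order from MITF on the x axis (negative towards lower coordinates) and the log2 ratio of resistant to sensitive on the y axis. Grey points are the 20 nearest tested genes, the red diamond is MITF and the dashed line is the median of the neighbours, which is at -2.29 in WM983A and between -0.58 and 0.34 in the other lines.

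SOX9 (ENSG00000125398, GRCh38 chromosome 17 from 72121020 to 72126416, plus strand) was close to the smallest detectable level in most libraries and did not pass the filter. Its counts were 0 in sensitive WM983A, 3 in WM983B, 15 in WM902B, 48 in WM278 and 5 in WM1617. In the resistant libraries they were 75.87 in WM983A, 653.9 in WM983B, 2 in WM902B, 10 in WM278 and 4 in WM1617. SOX9 was thus higher in the resistant lines of 1 patient, both of which had little SOX10 left, and lower or near the floor elsewhere. WM902B, with the least SOX10, had no more SOX9 than the smallest detectable level. The groups overlapped.

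Resistant WM983A had at least 29.5-fold more SOX9 than 3 counts would give in sensitive WM983A. Its log2 ratio depends on the value added, at 7.48 with 0.5 added, 6.49 with 1 and 4.23 with 5. The ratio in WM983B was 206 (95% counting interval 70.3 to 1000), on 3 sensitive counts. Resistant WM278 was 4.72-fold lower (2.36 to 10.5) and resistant WM902B 7.40-fold lower (1.72 to 66.7), while the interval in WM1617 included no difference (0.335 to 7.86). With no filter on low counts, the edgeR log2 fold change was 3.33 (SE 1.56, adjusted p = 0.623), and with cell line as a block it was 1.04 (SE 2.00, adjusted p = 0.889). The difference in mean log2 level was 1.74 (exact permutation p = 0.357), and it was 0.56 without WM983A and 0.36 without WM983B (exact permutation p = 0.857 in both). SOX9-AS1, the antisense RNA, had at most 3 counts in every library.

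Even at its highest, SOX9 reached 159 normalized counts per kilobase of exon in resistant WM983B, compared with 39.8 for SOX10 in that library and 966 for SOX10 in its sensitive line. In resistant WM983A the values were 22.5 for SOX9 and 20.4 for SOX10. In all 5 sensitive libraries SOX9 was at or under 11.6 per kilobase.

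Of 14 genes listed as SOX9 targets, most of them cartilage matrix genes, 8 passed the filter, with a median log2 fold change of -0.61. Without adjustment 0 were called higher and 1 lower, against 3.53% and 0.885% of all genes. The call was MATN1, a cartilage matrilin, at -1.21 (adjusted p = 0.685 in edgeR's test). COL2A1, the defining collagen of cartilage, had at most 10.8 normalized counts in any library. ACAN, the cartilage proteoglycan aggrecan, went from 234 to 3350 in WM278, where SOX9 was lower in the resistant line, and from 330 to 1.17 in WM983A, where SOX9 was higher. SOX5 and SOX6, partners of SOX9 in cartilage that are also expressed in melanocytes, had log2 ratios of -5.81 and -3.64 in WM983A and of -2.20 and -3.05 in WM983B. They were at -2.67 and -2.29 in WM902B, where SOX9 was lower too, at -1.61 and 1.14 in WM278 and at 0.25 and 0.41 in WM1617. With the replicate block 2 of the 8 tested genes were called lower, MATN1 and SOX5, against 2.05% of all genes.

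PAX3 (ENSG00000135903, GRCh38 chromosome 2 from 222199887 to 222298998, minus strand) was lower in 4 of the 5 resistant lines, and in 1 of them, WM983A, by at least 2-fold. The sensitive libraries held 565.8 normalized counts in WM983A, 473.8 in WM983B, 747.0 in WM902B, 455.4 in WM278 and 401.7 in WM1617. The resistant libraries held 15.18 in WM983A, 378.5 in WM983B, 425.2 in WM902B, 325.3 in WM278 and 517.0 in WM1617. Resistant WM983A lay far under the 9 other libraries, and the groups otherwise overlapped.

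Resistant WM983A was 37.3-fold lower (21.6 to 70.5), on 13 counts. PAX3 was 1.76-fold lower in WM902B (1.55 to 1.99), 1.40-fold lower in WM278 (1.22 to 1.62) and 1.25-fold lower in WM983B (1.09 to 1.43), and 1.29-fold higher in WM1617 (1.13 to 1.47). The edgeR log2 fold change was -0.67 (SE 0.630, adjusted p = 0.860) and -0.34 without WM983A (adjusted p = 0.929), and the exact permutation p of the log2 levels was 0.0794, or 0.286 without WM983A. PAX3 per kilobase of exon was well under MITF and SOX10 in the typical sensitive library, at a median of 59.7 normalized counts. In WM983B, where MITF and SOX10 were lower in the resistant library, PAX3 kept 79.9% of its sensitive level. CCDC140, a non-coding gene that overlaps PAX3 on the opposite strand, had 1.00 to 29.7 counts.

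TFAP2A (ENSG00000137203, GRCh38 chromosome 6 from 10393186 to 10419659, minus strand) had the narrowest range of within-line ratios among the 6 factors. Its normalized counts were 1306 in sensitive WM983A, 1274 in WM983B, 1034 in WM902B, 1515 in WM278 and 1415 in WM1617. They were 905.1 in resistant WM983A, 1728 in WM983B, 884.2 in WM902B, 3444 in WM278 and 1745 in WM1617. The AP-2 alpha transcript was thus present at 884.2 to 3444 normalized counts in all 10 libraries, including those with little SOX10, and resistant WM278 stood above the rest.

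Resistant WM278 was 2.27-fold higher (2.14 to 2.41), and in the other lines the fold lay between 1.44-fold lower in WM983A (1.32 to 1.58) and 1.36-fold higher in WM983B (1.26 to 1.46). The edgeR log2 fold change was 0.41 (SE 0.358, adjusted p = 0.851) and 0.08 without WM278 (adjusted p = 0.978), and it was 0.57 without WM983A (adjusted p = 0.915). The exact permutation p was 0.619, and 0.40 without WM983A. The antisense RNA TFAP2A-AS1 had log2 ratios of -0.18, 0.51, 1.04, -0.23 and -0.03 in WM983A, WM983B, WM278, WM1617 and WM902B.

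LEF1 (ENSG00000138795, GRCh38 chromosome 4 from 108047545 to 108168956, minus strand) was lower in both resistant lines of 1 patient. Sensitive libraries held 1285 normalized counts in WM983A, 1007 in WM983B, 4209 in WM902B, 1036 in WM278 and 2383 in WM1617. Resistant libraries held 102.2 in WM983A, 205.7 in WM983B, 2390 in WM902B, 902.9 in WM278 and 3704 in WM1617. WM983A and WM983B were the low ones among the resistant libraries, and the groups overlapped through the other 3 lines.

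The resistant library was 12.6-fold lower in WM983A (10.2 to 15.9), 4.89-fold lower in WM983B (4.21 to 5.68), 1.15-fold lower in WM278 (1.05 to 1.25) and 1.76-fold lower in WM902B (1.67 to 1.85), and it was 1.55-fold higher in WM1617 (1.48 to 1.64). The edgeR log2 fold change was -0.44 (SE 0.855, adjusted p = 0.945) and -0.26 without WM983A (adjusted p = 0.988), and the exact permutation p was 0.278, or 0.514 without WM983A. LEF1-AS1, which starts from the other strand and overlaps LEF1, had log2 ratios of -3.34, -1.66, -0.51, 0.36 and -1.53 across WM983A, WM983B, WM278, WM1617 and WM902B, and reads of this pair may have been assigned to either gene.

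Of 10 genes listed as WNT targets of LEF1, 8 passed the filter, and their median log2 fold change was -0.07. Without adjustment 1 was called higher and 0 lower, against 3.53% and 0.885% of all genes. AXIN2, the feedback inhibitor of WNT signalling, was the call, at 1.79 (adjusted p = 0.693 in edgeR's test), with log2 ratios of 5.01, 0.83, -0.19, -0.45 and 1.26 across WM983A, WM983B, WM278, WM1617 and WM902B. With the replicate block it was at 1.09 and was not called (unadjusted p = 0.226 in edgeR's test). In WM983A, AXIN2 was therefore higher where LEF1 was lower. RNF43, a ubiquitin ligase that removes WNT receptors, had log2 ratios of -5.36, -2.25, -1.33, -0.47 and -6.82 in the same order, and was called lower only with the replicate block, where edgeR gave a p of 0.0267 before adjustment and 0.461 after it. With the block 2 of the 8 were called lower, RNF43 and TNFRSF19, against 2.05% of all genes.

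The 13 genes listed as SOX10 targets, markers of melanocytes and Schwann cells were examined in the same way. Of the 11 that passed the filter, 0 were called without adjustment in either direction, against 4.41% of all genes tested. All 11 had a negative log2 fold change, with a median of -1.07 against 0.03 over all genes tested. All 11 were at least 2-fold lower in resistant WM983A and in resistant WM983B, 10 in WM902B, 1 in WM278 and 0 in WM1617. Of all genes tested, 19.4%, 11.2%, 12%, 7.02% and 3.79% were lower by that measure in these lines in that order. At least 2-fold higher were 3 targets in WM278 and 4 in WM1617, against 12% and 2.83% of all genes, and 0 in each other line. With the replicate block 2 of the 11 were called lower without adjustment, against 2.05% of all genes, FABP7 and GJB1, both of which the study itself singled out on these libraries, so they are no independent evidence.

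S100B, a calcium-binding marker of melanocytes and Schwann cells, had 9220, 3550, 1410, 625 and 2670 normalized counts in sensitive WM983A, WM983B, WM278, WM1617 and WM902B, and 54.9, 133, 9510, 1570 and 11.3 in the resistant libraries in that order. It was thus higher in the resistant lines that kept SOX10 and lower in those that did not. The cadherin gene CDH19 had log2 ratios of -7.05, -4.94, 0.34, 1.93 and -6.71 and the myelin gene PMP2 had -6.48, -5.24, 1.14, 1.56 and -6.67 in the same order. GJB1, a gap junction gene, had -6.09, -5.65, -0.97, 0.32 and -7.73. ERBB3, the neuregulin receptor, which is a SOX10 target as well as an upstream receptor, had -6.08, -4.36, -0.16, 0.43 and -8.51, at an edgeR log2 fold change of -2.13 (SE 1.11, adjusted p = 0.732).

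Of 8 genes listed as AP-2 targets, 6 passed the filter, and the median log2 fold change was 0.35. Without adjustment 0 were called in either direction, against 4.41% of all genes tested. MMP2, a gelatinase gene, was higher in every resistant line, with log2 ratios of 0.50, 3.49, 1.57, 1.16 and 1.64, and was called only with the block (unadjusted p = 0.00668, adjusted p = 0.461 in edgeR's test). The study itself named MMP2 as higher on these libraries, so it is no independent evidence. The adhesion gene MCAM had -5.30, -1.50, 2.48, 0.49 and -1.45. The stress gene CDKN1A had 1.66, -1.17, -0.85, -0.42 and 0.13, and the death receptor gene FAS had 0.24, 0.74, 0.14, -1.72 and 3.52. These AP-2 targets shared no direction, in lines where TFAP2A itself mostly stayed within 2-fold.

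The paralogues gave no call in either direction among the 8 of 12 that passed the filter, at a median of 0.36. Of all genes tested, 4.41% were called in either direction. TFEB and TFE3, the lysosomal relatives of MITF, had log2 ratios of 1.05, 1.10, 1.04, -0.92 and 2.45 and of 0.71, 1.37, -0.16, 0.02 and 0.85. TFEB was therefore higher in 4 resistant lines and lower in WM1617. SOX8, the third member of the SOX10 and SOX9 subfamily, had -0.42, -3.50, -5.32, 0.49 and -3.16, so that it was lowest relative to its sensitive line in WM278, where SOX10 was kept. SOX8 was called lower with the replicate block, at -2.46 (unadjusted p = 0.0417, adjusted p = 0.467 in edgeR's test). TFAP2C, the AP-2 gamma gene, had -1.12, -0.77, -1.08, -0.29 and 1.56.

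Among 16 other regulators of the lineage, all past the filter, the median was -0.08. Without adjustment 1 was called higher and 0 lower, against 3.53% and 0.885% of all genes. The call was SOX4, at 1.25 (SE 0.428, adjusted p = 0.630 in edgeR's test), with log2 ratios of 1.08, 0.00, 1.57, 0.77 and 2.00. POU3F2, the POU domain factor BRN2, had -5.43, -3.30, -0.47, 0.46 and -6.92, and IRF4, a partner of MITF at the tyrosinase gene, had -3.99, -4.68, 0.93, 0.15 and -7.52. ZEB1, a mesenchymal repressor, had 8.83, 2.25, -1.38, 0.20 and 3.31. Against 3 counts in the libraries where they had 0, ZEB1 was at least 151-fold higher in resistant WM983A and IRF4 at least 59.2-fold lower in resistant WM902B, so the log2 ratios of these 2 values are set by the added 1. POU3F2 and IRF4 were thus lower in the lines with little SOX10 left. ZEB1 was higher there than in the sensitive library of the same line, but in WM983B it went from 2.02 to 13.4 normalized counts. Its other resistant levels were 454 in WM983A, 723 in WM902B, 223 in WM278 and 405 in WM1617.

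Of 8 ligands and receptors upstream of the factors, 6 passed the filter, at a median log2 fold change of -0.63. Without adjustment 0 were called in either direction, against 4.41% of all genes tested. MC1R, the melanocortin receptor that raises MITF through cyclic AMP, had log2 ratios of -0.78, -0.83, 0.29, 0.10 and -1.78. EDN1, the endothelin ligand, went from 0 to 1910 normalized counts in WM983A, from 1.01 to 13.3 in WM983B, from 428 to 334 in WM278, from 1.09 to 0 in WM1617 and from 3.05 to 124 in WM902B. NRG1, the ligand of ERBB3, had log2 ratios of 2.13, -0.42, -0.59, -1.19 and -1.25, so it was higher in WM983A and lower in the other 4 lines. It went from 3.26 to 0.871 normalized counts in WM1617 and from 11.2 to 4.12 in WM902B, so the ratios of these lines rest on few counts. KIT did not pass the filter.

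Among 8 markers of dedifferentiated melanoma cells, 1 was called higher and 2 lower without adjustment, at a median of -0.14. Of all genes, 3.53% were called higher and 0.885% lower. NGFR, the neural crest receptor, and TNC, the matrix gene tenascin C, were the lower ones, at -5.93 (adjusted p = 0.630) and -2.42 (adjusted p = 0.669) in edgeR's test. The log2 ratios of NGFR were -7.06, -3.93, 2.68, 1.27 and -7.73. In the lines that kept SOX10 it went from 18.4 to 124 normalized counts in WM278 and from 19.0 to 47.2 in WM1617. The other resistant libraries held 180 in WM983A, 215 in WM983B and 44.8 in WM902B. With the replicate block NGFR was not called (unadjusted p = 0.198 in edgeR's test). The log2 ratios of TNC were -6.07, -3.59, -2.40, 1.34 and -5.33, and TNC was called with the block too (unadjusted p = 0.0256, adjusted p = 0.461 in edgeR's test). The study listed TNC among its lower genes on these libraries, so it is no independent evidence. EGFR had log2 ratios of 5.60, 3.18, -1.20, -2.28 and 3.72. Relative to the sensitive library of the same line, it was thus higher in the lines with little SOX10 left and lower in those that kept it. Over the pathway lists, 89 of the 108 genes were tested. Of these 7 were called without adjustment (7.87%), against 4.41% of all genes tested. With the replicate block 17 were called (19.1%), 2 higher and 15 lower, against 5.54% of all genes tested, and 0 passed after adjustment in either fit.

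The genes whose log2 levels were most like those of a factor over the 10 libraries were sought among all genes tested, by Pearson's r, which describes these libraries only and was chosen as the highest of many. For MITF they were TRIM63 (0.986), a muscle ubiquitin ligase also expressed in melanoma, GNPTAB (0.974), a lysosomal enzyme sorting gene, and the pigment transporter SLC45A2 (0.973). For SOX10 they included the secreted melanoma protein MIA (0.982) and POU3F2 (0.979). MIA was among the listed SOX10 targets and SLC45A2 among the MITF targets.

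The genes most like SOX9 included MYRF (0.914) and MB21D2 (0.913), over levels near the floor in most libraries. LEF1 was most like its antisense partner LEF1-AS1 (0.972), CTD-2006M22.2 (0.970) and VPS18 (0.965), and TFAP2A was most like GLI3 (0.932), C22orf29 (0.927) and TFAP2A-AS1 (0.924). PAX3 was most like CTB-113P19.1 (0.984), PRMT6 (0.979) and ZNF100 (0.977), each of which was between -5.14 and -5.35 in WM983A, the line in which PAX3 was 37.3-fold lower. Among the factors themselves, r was highest between PAX3 and LEF1 (0.76) and between MITF and LEF1 (0.64), and lowest between SOX9 and LEF1 (-0.69).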

How the data were processed

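The mRNA of 5 melanoma cell lines and their 5 resistant derivatives was sequenced after oligo-dT selection as single-end reads of 75 cycles. Alignment by the authors was to GRCh38 by HISAT2, and StrandNGS served them for statistical analysis. The counting tool, tool versions, annotation, use of strand and the handling of shared reads are not given in the sources used here. The authors deposited expected counts, estimated numbers of reads per gene that can hold fractions. The authors also deposited normalized values on the log2 scale, which equal the ratio to the sensitive library of the same line and were used to recover 455 expected counts of sensitive WM983B that had been stored as dates, none of a factor studied here.

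Expected counts were rounded, filtered with filterByExpr, scaled by TMM and tested with edgeR 4.0.16 (glmQLFit, glmQLFTest, two-sided, Benjamini-Hochberg over 17288 genes), 5 against 5 libraries without a block, since the study's methods name a moderated test and no pairing. DESeq2 1.42.0 in R 4.3.3 was an alternative. Further steps used Python 3.11.15 with scipy 1.17.1, pandas 2.3.3, numpy 2.4.6 and matplotlib 3.10.9. Exact permutation tests used log2(normalized count + 1). Within-line log2 ratios added 1 to both normalized counts. The fits were tested on simulated data. Positions and exon lengths are those of GENCODE release 44, in which 56911 of the 57955 gene identifiers were found, and promoter sequences are from RefSeq. Totals per library were 13693922 to 18033247 counts. Counting intervals are exact 95% intervals and cover counting error only.

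By the labels and the study's methods each resistant line descends from its sensitive namesake, which pairs the libraries. The identity of the lines was not tested here. After removal of the group means, both libraries of a line correlated with r of -0.06 in WM983A, 0.54 in WM983B, 0.38 in WM902B, 0.67 in WM278 and 0.67 in WM1617.

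The 6 factors and the gene lists were chosen with earlier results of these data known. Named are the factors, up to 4 tested genes of each list with the largest absolute median of the 5 within-line log2 ratios and any list gene called without adjustment, the 3 genes most like each factor, overlapping genes and nearest neighbours. TYRP1 and DCT promoters, FABP7, KIT, COL2A1, TNFRSF19, TP63, KDR and the absent markers were named after their values were seen. Some genes that this rule names are not reported here.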

Additional observations from a re-analysis of the deposited data

Results flagged for a closer look

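The MITF level of sensitive WM278 lay far from the other sensitive lines. On the log2 scale it was 7.36 against 11.97 to 13.22, and the gap to its nearest neighbour was 0.787 of the range of the group, above the limit of 0.71 for 5 samples. The PAX3 level of resistant WM983A lay far from the other resistant lines in the same way, at 4.02 against 8.35 to 9.02, with a gap of 0.867 of the range. Both states of each of the 6 factors were examined, 12 groups in all, and chance alone places about 1 group in 20 past the limit. PAX3 in resistant WM983A rests on 13 counts and MITF in sensitive WM278 on 171.3, so neither is at the smallest detectable level.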

How the results depend on the processing

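None of the factors that could be tested was called in edgeR's test at an unadjusted p of 0.05 or less with a 2-fold change, with RLE size factors, without a filter, with at least 10 counts in every library, with the replicate block, by DESeq2's Wald test, or without any 1 line. With the replicate block and no filter together, chosen after seeing the data, 2 were called without adjustment, MITF and SOX10, with adjusted p of 0.625 and 0.583 in edgeR's test. With the replicate block and the filter, SOX10 had a log2 fold change of -3.85 (unadjusted p = 0.0584) and MITF -1.37 (0.0760). Without 1 line, the log2 fold change ranged from -1.80 to -0.71 for MITF, -2.13 to -1.04 for SOX10, -0.97 to -0.34 for PAX3, 0.08 to 0.57 for TFAP2A and -1.07 to -0.21 for LEF1.

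The 7 calls over the pathway lists became 4 with at least 10 counts in every library, 17 with the replicate block and 29 with the block and no filter. They were 2 to 25 without 1 line (4 without WM983A, 2 without WM983B, 12 without WM278, 25 without WM1617 and 4 without WM902B). Of all genes tested, 4.41% were called without the block and 5.54% with it. Shares for the other settings are not given here, so changes of the lists cannot be told from changes of all genes. The number of factors with an exact permutation p of at most 0.05 was 0 to 2 without 1 line. Without WM278 the difference in mean log2 level of TFAP2A turned to -0.00 (range without 1 line -0.00 to 0.43), and without WM1617 PAX3 reached an exact permutation p of 0.0286. The number of factor and line pairs whose neighbours had a median of at least 2-fold was 3 of 30, 5 with 5 genes on each side and 1 with 20. The cause of these changes was not tested. The 13 within-line differences of at least 2-fold stayed 13 with pseudocounts of 0.5 and 5, RLE size factors and CPM. Depth limits SOX9 most, which had at most 5 counts in 5 of the 10 libraries.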
